A study of Mus musculus with 10 samples.

Results

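The genes of the vascular endothelial growth factor (VEGF) ligands and receptors were followed across a mouse model of retinal vessel disease. The 7 genes are 4 ligands, Vegfa, Vegfb, Vegfc and Pgf, and 3 receptors, Flt1, Kdr and Flt4, taken by symbol from the 30063 genes that the array annotation names. Each has 1 transcript cluster (the set of probes read as 1 value) annotated to that symbol alone, and all 7 passed the filter on dim genes that left 23255 genes for testing. Total RNA of whole retina was hybridised to 10 Affymetrix whole-transcript arrays in 5 groups of 2. Oxygen-induced retinopathy (OIR) was produced by housing pups in 75% oxygen from postnatal day 7 for 5 days and then in air. The groups were OIR retina at day 17 injected into the vitreous with the inhibitor ISOX DUAL, OIR retina at day 17 injected with PBS, uninjected OIR retina at day 17, untreated retina at day 17 and untreated retina at day 7. All mice were C57BL/6JJmsSlc, no engineered allele is named, and injections were given as soon as the hyperoxia ended. ISOX DUAL is known as an inhibitor of both BET and CBP/EP300 bromodomains, and its dose is not given in the sources used here. The labels repeat the oxygen protocol on every sample, so how the untreated pups were housed is not given separately. Nor do they say whether the arrays of a group hold separate animals or pools, so the p-values below measure only the spread between arrays, which may be technical.

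VEGF-A is the main growth factor of blood vessels, and its gene is switched on in hypoxic tissue through the hypoxia-inducible factors. It acts on endothelial cells mostly through VEGFR2, the product of Kdr, while VEGFR1, the product of Flt1, binds VEGF-A, VEGF-B and placental growth factor (the product of Pgf) and largely acts as a trap for VEGF-A. VEGF-C signals through VEGFR3, the product of Flt4, in lymphatic and sprouting blood vessels. In OIR, high oxygen stops and prunes the growing retinal vessels, and the return to air leaves poorly perfused retina in which vessels sprout towards the vitreous.

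Values are log2 signals as deposited, and a difference of 1 on this scale is a doubling. A gene is called when its limma p, adjusted by Benjamini-Hochberg over the 23255 genes, was under 0.05. The median signal of the arrays' negative control probes was 5.83 to 6.11 log2 and is used here as a floor: Vegfa, Vegfb, Flt1 and Kdr lay above it on all 10 arrays, Flt4 on 9, Vegfc on 6 and Pgf on 2, both of them uninjected OIR arrays. Only Vegfa and Kdr also exceeded the 95th percentile of those controls on every array. The tissue label was checked against 8 rod photoreceptor markers, all above the floor on all 10 arrays, with mean levels of 11.25 to 11.51 log2 on the day 17 arrays.

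On GRCm38.p6 the RefSeq genes lie at chromosome 17, 46016993 to 46032377 (Vegfa), chromosome 19, 6982472 to 6987651 (Vegfb), chromosome 8, 54077532 to 54186454 (Vegfc), chromosome 12, 85166637 to 85177785 (Pgf), chromosome 5, 147561604 to 147726438 (Flt1), chromosome 5, 75932827 to 75979072 (Kdr), and chromosome 11, 49609679 to 49652739 (Flt4). The start regions of the genes that changed are shown because the pathway's best-known control is hypoxia. Windows of 300 bases around RefSeq transcript starts (250 before and 50 after, GRCm38.p6, in the direction of the gene) were searched on both strands. The letters sought were ACGTG and GCGTG, the core that hypoxia-inducible factors are known to bind. For Pgf, Flt1 and Kdr the windows stop short of the upstream gene end given above, so a start at that end was not searched. No matches overlapped in these windows. All 7 genes matched the RefSeq table, with 9 windows. Capitals mark the matches, and a match on the opposite strand reads CACGT or CACGC.
Vegfa at its upstream start, chr17:46032328-46032627, minus strand: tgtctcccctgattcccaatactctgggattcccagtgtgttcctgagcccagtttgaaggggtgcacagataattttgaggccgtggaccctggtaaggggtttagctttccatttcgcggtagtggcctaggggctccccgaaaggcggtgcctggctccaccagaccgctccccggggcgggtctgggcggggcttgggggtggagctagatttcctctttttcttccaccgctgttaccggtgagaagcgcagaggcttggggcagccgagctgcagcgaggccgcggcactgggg
Vegfa at a start inside the gene, chr17:46025114-46025413, minus strand: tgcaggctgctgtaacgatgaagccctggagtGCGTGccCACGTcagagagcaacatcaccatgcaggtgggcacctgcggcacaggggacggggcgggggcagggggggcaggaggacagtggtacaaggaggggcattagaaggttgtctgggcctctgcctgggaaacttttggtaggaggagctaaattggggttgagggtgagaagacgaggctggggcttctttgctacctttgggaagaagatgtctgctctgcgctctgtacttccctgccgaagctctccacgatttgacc
Pgf, chr12:85177264-85177563, minus strand: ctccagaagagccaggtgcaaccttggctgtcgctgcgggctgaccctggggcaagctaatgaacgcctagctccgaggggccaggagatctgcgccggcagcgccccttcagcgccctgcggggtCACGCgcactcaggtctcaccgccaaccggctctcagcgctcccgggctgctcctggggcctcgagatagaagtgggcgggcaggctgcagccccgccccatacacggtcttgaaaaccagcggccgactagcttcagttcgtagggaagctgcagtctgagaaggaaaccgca
Flt1, chr5:147725962-147726261, minus strand: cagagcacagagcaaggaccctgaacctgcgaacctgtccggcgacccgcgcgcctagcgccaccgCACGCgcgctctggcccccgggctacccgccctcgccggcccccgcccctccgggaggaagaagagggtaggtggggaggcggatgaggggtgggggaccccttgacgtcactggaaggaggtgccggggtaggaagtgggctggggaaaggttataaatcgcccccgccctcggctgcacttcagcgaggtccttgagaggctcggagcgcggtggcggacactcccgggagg
Kdr, chr5:75978406-75978705, minus strand: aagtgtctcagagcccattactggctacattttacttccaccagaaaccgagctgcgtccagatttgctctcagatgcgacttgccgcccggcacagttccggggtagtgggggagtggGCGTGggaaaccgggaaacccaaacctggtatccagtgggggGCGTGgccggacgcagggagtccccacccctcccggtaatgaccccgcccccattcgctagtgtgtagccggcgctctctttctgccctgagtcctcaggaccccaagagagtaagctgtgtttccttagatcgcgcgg

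The upstream Vegfa window held neither motif, which says only that these letters are not in this window. The Vegfa window inside the gene held GCGTG at -218 and ACGTG on the opposite strand at -211, counted from the transcript start. Pgf had GCGTG on the opposite strand at -124, and Flt1 had it at -184. Kdr had GCGTG at -131 and at -89. In all, 5 of the 9 windows of the 7 genes held a match, against 43.8% of 32851 windows of the same length over all genes, where ACGTG was in 19.6% and GCGTG in 32.4%. Among the windows not printed, that of Vegfb held 2 GCGTG matches and those of Vegfc, Flt4 and the other start of Pgf held none.

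The ligand genes Vegfa and Pgf rose in uninjected OIR, and the receptor genes Flt1 and Kdr changed with age. Uninjected OIR had 2.11-fold more Vegfa transcript than untreated day 17 retina and at least 1.26-fold more Pgf, while none of the 3 receptors was called. Against untreated day 7 retina, untreated day 17 retina had 2.88-fold more Flt1 transcript, 0.611 times the Kdr transcript. Injection of ISOX DUAL instead of PBS changed none of the 7 past the threshold. Vegfa lay above both untreated groups on every OIR array, and no Vegfa difference between OIR groups was called. The OIR calls of Vegfa and Pgf and the age call of Kdr were lost in several other fits given below. Most Pgf arrays lay below the floor. In bulk retina, fewer cells of a type and less RNA per cell cannot be told apart.

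**Figure D1:**
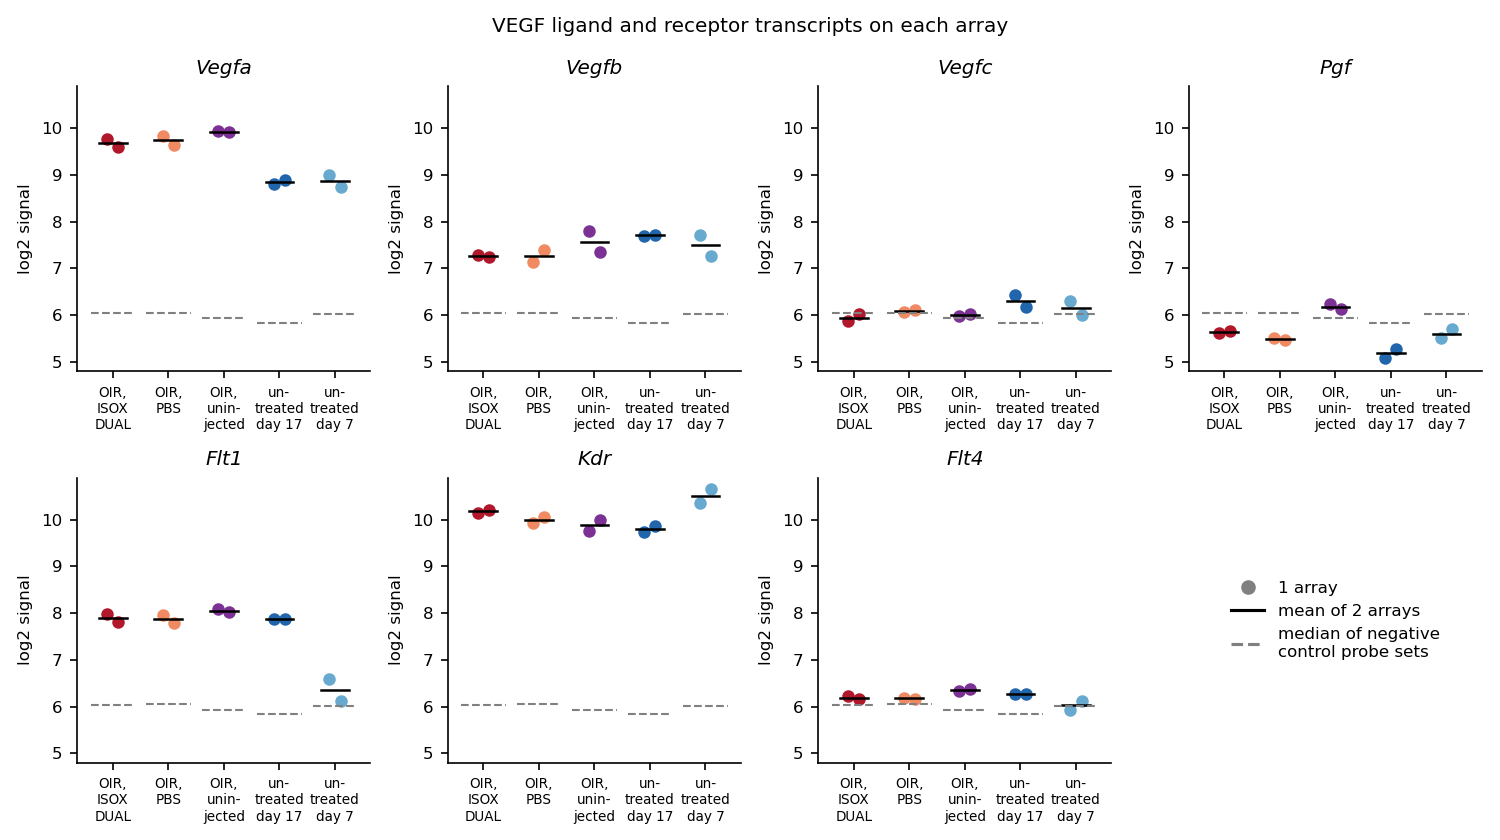
Log2 signal (y axis) of each of the 7 genes on each array (points), by group (x axis), with the mean of 2 arrays as a solid bar and the mean of the group's negative control medians as a dashed bar. The Vegfa points of the 3 OIR groups, at 9.60 to 9.94, all lie above those of both untreated groups, at 8.75 to 8.99, and the Flt1 points of day 7, at 6.60 and 6.11, lie below all others.

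Vegfa had 9.77 and 9.60 log2 in ISOX DUAL-injected OIR, 9.84 and 9.64 in PBS-injected OIR and 9.94 and 9.91 in uninjected OIR, against 8.81 and 8.88 in untreated day 17 and 8.99 and 8.75 in untreated day 7 retina. All 6 OIR arrays were above all 4 untreated arrays, and the 2 untreated ages overlapped. Uninjected OIR exceeded untreated day 17 retina by 1.08 ± 0.12 log2 (SE, n = 2 arrays each, 95% interval 0.81 to 1.36, limma adjusted p = 0.0176). That difference ranked 71 from the highest among the 23255 genes. It stayed between 1.05 and 1.12 when any 1 array was left out, but the call was lost without either uninjected OIR array, either untreated day 17 array or either ISOX DUAL array (adjusted p from 0.0529 to 0.146). It was also lost with array weights (adjusted p = 0.0952) and in a fit of the 4 arrays alone (0.277). Those fits called 12 and 0 of all 23255 genes.

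In the injected groups the Vegfa difference from untreated day 17 was smaller and not called. PBS-injected OIR exceeded untreated day 17 by 0.89 log2 (1.86-fold, interval 0.62 to 1.17, adjusted p = 0.27), and ISOX DUAL-injected OIR by 0.84 (1.79-fold, interval 0.56 to 1.11, adjusted p = 0.144). Against untreated day 7, all 3 OIR groups were called higher in Vegfa. The fold was 1.75 with ISOX DUAL (adjusted p = 0.00589), 1.83 with PBS (0.00454) and 2.08 uninjected (0.00185), and these 3 comparisons differ in age as well as in retinopathy. The unadjusted p of the PBS group was 7.92e-05 against day 17 and 9.75e-05 against day 7, so the gap between its adjusted values follows from how many other genes passed, 0 against day 17 and 2110 against day 7. Without ISOX DUAL array 1 the call of that group against day 7 was lost (adjusted p = 0.067), and in fits of the 4 arrays alone it was lost with ISOX DUAL (0.0524) and PBS (0.0514).

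Between OIR groups, no Vegfa difference was called. ISOX DUAL minus PBS was -0.06 log2 (interval -0.33 to 0.22, adjusted p = 1), with overlapping arrays. ISOX DUAL minus uninjected OIR was -0.24 (interval -0.52 to 0.03, adjusted p = 0.991), and PBS minus uninjected OIR was -0.19 (interval -0.46 to 0.09, adjusted p = 0.966). A p above the threshold does not show equal levels. With age, untreated day 17 minus day 7 was -0.03 (interval -0.30 to 0.25). In the order of Vegfa levels, from uninjected OIR through PBS, ISOX DUAL and day 7 to day 17, only the step between ISOX DUAL-injected OIR and day 7 was called.

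Pgf had 5.62 and 5.67 log2 in ISOX DUAL-injected OIR, 5.52 and 5.47 in PBS-injected OIR and 6.23 and 6.12 in uninjected OIR, against 5.09 and 5.27 in untreated day 17 and 5.50 and 5.71 in untreated day 7 retina. The uninjected OIR arrays were the highest and overlapped no other group, and the other 8 arrays lay below the floor, where signals have no order. Pgf was at least 1.26-fold higher in uninjected OIR than in untreated day 17 retina, taken against the floor. The limma fit, which used the signals as they stand (0.99 log2 apart, not an exact size), gave an adjusted p of 0.0176. That call was lost without the same arrays as that of Vegfa (adjusted p from 0.0638 to 0.14). It was lost too with array weights (0.0586) and in a fit of the 4 arrays alone (0.348).

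Both injected OIR groups lay below the floor for Pgf. Uninjected OIR was at least 1.09-fold higher than the floor of either, and the fit called neither difference (adjusted p = 0.424 for ISOX DUAL and 0.218 for PBS against uninjected OIR). For ISOX DUAL against PBS (adjusted p = 1), ISOX DUAL against untreated day 17 (0.298) and PBS against untreated day 17 (0.541), both groups were below the floor, so no size is given.

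With age, the fit called the Pgf signal lower in untreated day 17 than in untreated day 7 retina (adjusted p = 0.0492), but both groups lay below the floor, so this is a difference of background-level signal and no size is given. The call was lost when any 1 array other than day 7 array 1 was left out (adjusted p from 0.0536 to 0.201). It was lost too with no filter on dim genes (0.0564), robust moderation (0.0502), array weights (0.153) or the 4 arrays alone (0.348). The fit, on the signals as they stand, called Pgf higher in uninjected OIR than in day 7 retina (adjusted p = 0.0155). Taken against the floor, which was not tested, Pgf was at least 1.11-fold higher there. The call was lost without either uninjected OIR array or day 7 array 1, and with the 4 arrays alone (0.149).

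Vegfb, whose product binds VEGFR1 and is best known in muscle and nerve, was not called in any comparison. It had 7.28 and 7.25 log2 in ISOX DUAL-injected OIR, 7.13 and 7.39 in PBS-injected OIR and 7.79 and 7.34 in uninjected OIR, against 7.70 and 7.72 in untreated day 17 and 7.72 and 7.26 in untreated day 7 retina. The injected arrays were all below the untreated day 17 arrays, and the uninjected OIR and day 7 arrays spanned a wide range. ISOX DUAL minus untreated day 17 was -0.44 (interval -0.89 to 0.01, adjusted p = 0.594), and PBS minus untreated day 17 was -0.45 (interval -0.89 to 0, adjusted p = 0.544). Uninjected OIR minus untreated day 17 was -0.15 (interval -0.59 to 0.30) and turned to 0.08 without uninjected OIR array 2.

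Vegfc, the lymphatic growth factor of the family, was close to the floor and not called in any comparison. It had 5.87 and 6.02 log2 in ISOX DUAL-injected OIR, 6.07 and 6.10 in PBS-injected OIR and 5.98 and 6.03 in uninjected OIR, against 6.43 and 6.17 in untreated day 17 and 6.30 and 6.01 in untreated day 7 retina. All 6 OIR arrays lay below both untreated day 17 arrays. Both ISOX DUAL arrays were below the floor, and untreated day 17 was at least 1.19-fold higher than it, without a call (adjusted p = 0.518). The differences from untreated day 17 were -0.22 with PBS (interval -0.52 to 0.09) and -0.30 uninjected (interval -0.60 to 0.01, adjusted p = 0.845). No step between neighbouring groups of Vegfb or Vegfc was called in the fit.

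Flt1, the gene of the VEGF-A trap receptor, separated day 7 from every day 17 group. It had 7.99 and 7.80 log2 in ISOX DUAL-injected OIR, 7.95 and 7.79 in PBS-injected OIR and 8.09 and 8.02 in uninjected OIR, against 7.88 and 7.87 in untreated day 17 and 6.60 and 6.11 in untreated day 7 retina. Untreated day 17 minus day 7 was 1.52 ± 0.16 log2 (2.88-fold, interval 1.15 to 1.9, adjusted p = 0.0014), the 197th highest difference. On day 7 array 2 Flt1, at 6.11, lay close to that array's negative control median of 6.05, so folds against day 7 are not exact sizes. The call held with each array left out in turn (1.28 to 1.77 log2), with array weights and in a fit of the 4 arrays alone. Flt1 was likewise called higher than day 7 in ISOX DUAL-injected OIR (2.91-fold, adjusted p = 0.00145), PBS-injected OIR (2.85-fold, 0.00158) and uninjected OIR (3.25-fold, 0.000903).

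Among the day 17 groups, Flt1 levels lay close together and were not called apart. The uninjected OIR arrays were above all other arrays, but the difference from untreated day 17 was 0.18 log2 (interval -0.20 to 0.55, adjusted p = 0.999). PBS minus untreated day 17 was -0.01 (interval -0.38 to 0.36), ISOX DUAL minus untreated day 17 was 0.02 (interval -0.35 to 0.39), and ISOX DUAL minus PBS was 0.03 (interval -0.34 to 0.40). In the order of levels, from uninjected OIR through ISOX DUAL, untreated day 17 and PBS to day 7, only the last step was called.

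Kdr, the gene of the main signalling receptor, moved in the opposite direction with age. In the mouse retina Kdr is known from neural cells as well as from vessels. It had 10.14 and 10.21 log2 in ISOX DUAL-injected OIR, 9.93 and 10.06 in PBS-injected OIR and 9.76 and 9.99 in uninjected OIR, against 9.73 and 9.86 in untreated day 17 and 10.35 and 10.66 in untreated day 7 retina. Both day 7 arrays were above all day 17 arrays. Untreated day 17 minus day 7 was -0.71 ± 0.13 log2 (0.611-fold, interval -1.02 to -0.40, adjusted p = 0.0139), 735 from the lowest. The call was lost without untreated day 17 array 1 (adjusted p = 0.0723), without day 7 array 2 (0.0637), with array weights (0.0543) and in a fit of the 4 arrays alone (0.145).

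Among the day 17 groups, Kdr was highest with ISOX DUAL, without a call. Both ISOX DUAL arrays lay above the PBS, uninjected OIR and untreated day 17 arrays. ISOX DUAL minus untreated day 17 was 0.38 (interval 0.07 to 0.69, adjusted p = 0.494), ISOX DUAL minus uninjected OIR was 0.30 (interval -0.01 to 0.61, adjusted p = 0.991) and ISOX DUAL minus PBS was 0.18 (interval -0.13 to 0.49, adjusted p = 1). PBS minus untreated day 17 was 0.20 (interval -0.11 to 0.51, adjusted p = 0.59), and uninjected OIR minus untreated day 17 was 0.08 (interval -0.23 to 0.39). Against day 7, uninjected OIR was called lower, by -0.63 (adjusted p = 0.0234), and neither the ISOX DUAL difference of -0.33 (adjusted p = 0.204) nor the PBS difference of -0.51 (0.0538) was called. The PBS difference passed with the replicate number as a block (0.0164), with crossed numbers (0.0303) and without day 7 array 1 (0.0364). The uninjected call was lost without either ISOX DUAL array (adjusted p = 0.0537), uninjected OIR array 1 (0.14) or day 7 array 2 (0.0949), and with quantile normalization (0.0572), an intensity trend (0.0588), array weights (0.0557) or the 4 arrays alone (0.176). In the order of Kdr levels, from day 7 through ISOX DUAL, PBS and uninjected OIR to untreated day 17, no step between neighbours was called.

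Flt4, the gene of the VEGF-C receptor, varied least among the receptors and was not called in any comparison. It had 6.22 and 6.16 log2 in ISOX DUAL-injected OIR, 6.19 and 6.17 in PBS-injected OIR and 6.34 and 6.37 in uninjected OIR, against 6.27 and 6.28 in untreated day 17 and 5.93 and 6.13 in untreated day 7 retina. The uninjected OIR arrays were the highest and the day 7 arrays the lowest. Uninjected OIR minus untreated day 17 was 0.09 (interval -0.13 to 0.30), and untreated day 17 minus day 7 was 0.24 (interval 0.03 to 0.46, adjusted p = 0.164). In the order of Flt4 levels, from uninjected OIR through untreated day 17, ISOX DUAL and PBS to day 7, no step between neighbours was called.

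**Figure D2:**
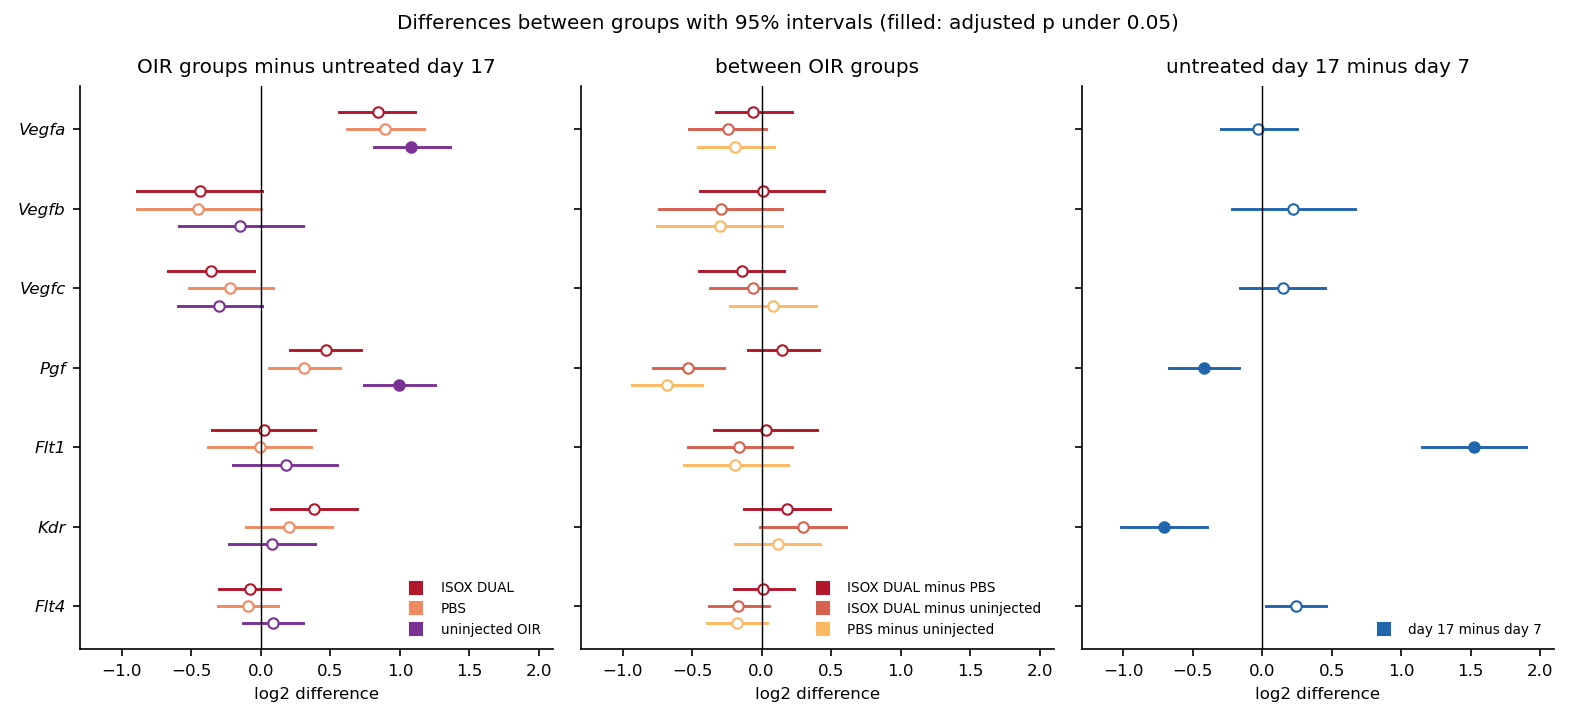
Log2 difference (x axis) of each of the 7 genes (rows) with its 95% interval, for the OIR groups against untreated day 17 (left), between OIR groups (middle) and for untreated day 17 against day 7 (right). Filled points are called: Vegfa (1.08) and Pgf (0.99) in uninjected OIR, and Flt1 (1.52), Kdr (-0.71) and Pgf with age. The Pgf points are not exact sizes, since 8 of its 10 arrays lay below the floor. With age both Pgf groups lay below it, so that point is background-level signal and gives no size.

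Read against all genes, the counts differ between comparisons. In uninjected OIR against untreated day 17, 2 of the 7 were called, both higher, where 0.495% of all genes were called and 0.456% were called higher. Of the 7, 2 had an unadjusted p under 0.05, against 6.1% of all genes, and 5 did not overlap between these groups, against 28.4% of all genes. In untreated day 17 against day 7, 3 of the 7 were called, 1 higher and 2 lower (1 of them Pgf, below the floor at both ages), where 10.6% of all genes were called, 5.26% higher and 5.29% lower. There 4 of the 7 did not overlap, against 40.4% of all genes.

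The injected groups gave no called gene of the 7 against untreated day 17. With PBS, 0% of all genes were called, and 3 of the 7 had an unadjusted limma p under 0.05, against 9.14% of all genes. With ISOX DUAL, 0.0172% of all genes were called, and 4 of the 7 had an unadjusted p under 0.05, against 8.46%. In each of these comparisons 6 of the 7 did not overlap, against 48.4% of all genes with PBS and 48.1% with ISOX DUAL. Pgf is in all of these counts, though it lay below the floor in both groups of each comparison, where signals have no order.

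Between OIR groups, no gene of the 7 was called. For ISOX DUAL against PBS, 0% of all genes were called, none of the 7 had an unadjusted p under 0.05 (1.02% of all genes), and 3 did not overlap (28% of all genes). Those 3 were Kdr, Vegfc, below the floor with ISOX DUAL, and Pgf, below the floor in both groups. For ISOX DUAL against uninjected OIR, 0.0043% were called, 1 of the 7, Pgf, had an unadjusted p under 0.05 (4.29%), and 6 did not overlap (41.1%). For PBS against uninjected OIR, 0% were called, Pgf again was the only 1 with an unadjusted p under 0.05 (4.29%), and 5 did not overlap (36.1%). These comparisons share arrays with each other and with those above, so their counts are not independent.

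Against day 7, 4 of the 7 were called in uninjected OIR, 3 higher and 1 lower (9.9% of all genes called, 5.38% higher and 4.52% lower). In PBS-injected OIR 2 were called, both higher (9.07% called, 4.69% higher), and in ISOX DUAL-injected OIR 2, both higher (8.81% called, 4.56% higher). Vegfa and Flt1 were the called genes in both injected groups.

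The genes around the VEGF ligands and receptors were read from 5 lists by role. These lists, like the cell marker lists below, were chosen with earlier results of these data known. Their counts and medians are therefore a description and not independent evidence. Among 14 tested of 15 transcriptional and RNA-level regulators of Vegfa, 3 rose and none fell in uninjected OIR against untreated day 17 (0.495% of all genes were called). The 3 were Egln3 (2.49 ± 0.23 log2, 5.61-fold, adjusted p = 0.00973), Stat3 (1.56 ± 0.15, 2.95-fold, 0.0129) and Egln1 (0.96 ± 0.09, 1.94-fold, 0.0129). Egln1 and Egln3 encode oxygen-sensing prolyl hydroxylases that mark hypoxia-inducible factors for decay and are themselves known targets of those factors, and Stat3 encodes a transcription factor of cytokine signalling. The list's median was 0.14, against -0.04 over all genes. Zfp36, whose product destabilises RNAs, was at least 1.39-fold higher, taken against the floor, and missed the threshold (adjusted p = 0.0508). The remaining members of smallest p, Arnt and Zfp36l1, differed by 0.17 (adjusted p = 0.97) and 0.47 (adjusted p = 0.985).

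Egln3 had 8.78 and 8.31 log2 in uninjected OIR, against 6.32 and 5.79 in untreated day 17 retina, with no overlap. In the ISOX DUAL group its difference from untreated day 17 was 1.09 (adjusted p = 0.268), and in the PBS group it was 0.78 (adjusted p = 0.537). Egln1 differed from untreated day 17 by 0.37 with ISOX DUAL and 0.21 with PBS, and Stat3 by 1.07 and 0.75, none past the threshold. ISOX DUAL minus PBS was 0.30 for Egln3, 0.16 for Egln1 and 0.32 for Stat3, each with an adjusted p of 1.

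VEGF-responsive endothelial genes, known to be induced in vessel cells by VEGF or in sprouting tip cells, rose in part. Of 20 tested, 5 were called higher and none lower in uninjected OIR against untreated day 17, where 0.456% of all genes were called higher. The list's median was 0.46, against -0.04 over all genes, and 18 of the 20 differences were above 0. Angpt2, a Tie2 ligand that loosens vessel walls, had 8.22 and 8.07 log2 in uninjected OIR, against 6.22 and 6.33 in untreated day 17 (1.87 ± 0.13, 3.65-fold, adjusted p = 0.00526). Apln, which encodes the tip cell peptide apelin, had 7.46 and 7.73 against 5.00 and 5.31 (2.44 ± 0.19, at least 3.38-fold, 0.00526), and Esm1, a tip cell proteoglycan gene, 6.88 and 6.53 against 5.06 and 5.16 (1.60 ± 0.19, at least 1.83-fold, 0.0212). Plat, the gene of tissue plasminogen activator, rose 2.05-fold (adjusted p = 0.0241) and Nid2, a basement membrane gene, 1.59-fold (0.0241). Nr4a1, an immediate-early gene, was 1.38 higher without a call (adjusted p = 0.119).

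In the injected OIR groups none of these 20 genes was called against untreated day 17, with medians of 0.07 with ISOX DUAL and 0.11 with PBS. Of all genes, only 0.0172% were called with ISOX DUAL and 0% with PBS, so a lack of calls says little about these 20. With ISOX DUAL 4 had an unadjusted limma p under 0.05 (8.46% of all genes), and with PBS 7 (9.14%). Angpt2 had 6.54 and 6.39 log2 with ISOX DUAL and 6.88 and 6.60 with PBS. Its difference from uninjected OIR was called for ISOX DUAL (-1.68 ± 0.13, adjusted p = 0.0339) and not for PBS (-1.41, adjusted p = 0.088). Of all genes, 0.0043% were called in the first of these comparisons and 0% in the second. For Angpt2, ISOX DUAL minus PBS was -0.27 (adjusted p = 1). The list's median was -0.40 for ISOX DUAL against uninjected OIR, -0.31 for PBS against uninjected OIR and -0.06 for ISOX DUAL against PBS. In the last of these none was called and 1 had an unadjusted p under 0.05 (1.02% of all genes).

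Genes of VEGF receptor signalling were not called in OIR. Of 21 tested of 25, none passed in uninjected OIR against untreated day 17, 2 had an unadjusted p under 0.05 (6.1% of all genes), and the median was -0.01. Mapkapk2, a kinase gene downstream of p38, differed by 0.52 (adjusted p = 0.335) and Prkcb, a protein kinase C gene, by -0.33 (adjusted p = 0.441). Of 14 tested of 15 genes of receptor trafficking and control, none passed, 3 had an unadjusted p under 0.05, and the median was 0.19. Itgav, the integrin alpha V gene, differed by 0.60 (adjusted p = 0.139) and Cdh5, the VE-cadherin gene, by 0.81 (adjusted p = 0.362). The coreceptor gene Nrp2 differed by 0.32 (adjusted p = 0.985). Vegfd was below the filter, and Nrp1 shares its transcript cluster's annotation with another gene and is not analysed here.

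**Figure D3:**
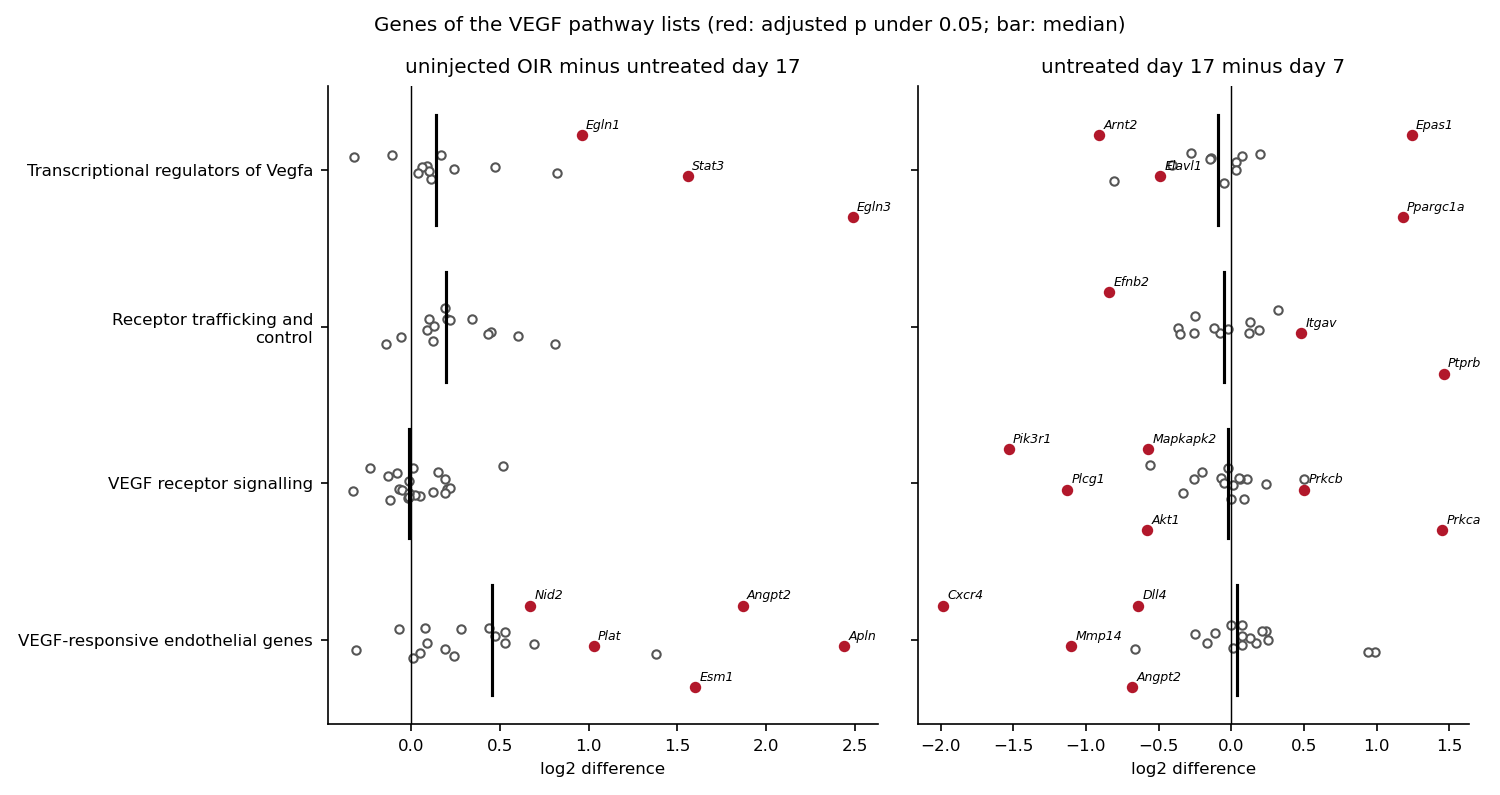
Log2 difference (x axis) of each tested gene of 4 VEGF pathway lists (rows, points spread vertically only for legibility) for uninjected OIR against untreated day 17 (left) and untreated day 17 against day 7 (right), with called genes in red and named, and list medians as bars. In OIR the red points are all above 0, from 0.67 for Nid2 to 2.49 for Egln3, and with age they lie on both sides, from -1.98 for Cxcr4 to 1.46 for Ptprb.

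Between the untreated ages, 10.6% of all genes were called, 5.26% higher and 5.29% lower, and the lists' counts are to be read against that share. In untreated day 17 against day 7, 2 signalling genes rose and 4 fell of 21, with Prkca up by 1.45 ± 0.17 log2 (2.73-fold, adjusted p = 0.00243) and Prkcb by 0.50 ± 0.10 (0.0168). Pik3r1, a regulatory subunit gene of PI3-kinase, fell by 1.53 ± 0.12 (adjusted p = 0.000477), and Plcg1, the phospholipase C gene that couples to VEGFR2, fell by 1.13 ± 0.21 (0.0139). Of 14 trafficking genes 2 rose and 1 fell: Ptprb, the vascular phosphatase that restrains Tie2 and VEGFR2, was 2.76-fold higher (adjusted p = 0.000441), Itgav 0.48 log2 higher (0.0474), and Efnb2, an ephrin of arterial and sprouting vessels, fell by 0.84 ± 0.16 (0.0165). Of 20 VEGF-responsive genes none rose and 4 fell, namely Mmp14 (-1.10), Cxcr4 (-1.98), Dll4 (-0.64) and Angpt2 (-0.68), with adjusted p of 0.00362 to 0.0146. Of 14 Vegfa regulators 2 rose, Epas1 (HIF-2 alpha, 1.24, adjusted p = 0.00331) and Ppargc1a (1.18, 0.0277), and 2 fell, Arnt2 (-0.91, 0.00485) and Elavl1 (-0.49, 0.0398). The medians of these lists were between -0.09 and 0.04, against 0.01 over all genes, and Nrp2 differed by -0.57 (adjusted p = 0.0916).

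Markers of the cells that carry the receptors are given beside them, and their part in the results above was not tested. Of 15 tested of 16 endothelial markers, none was called in uninjected OIR against untreated day 17, where 12 differences were above 0, 9 had an unadjusted p under 0.05 (6.1% of all genes) and the median was 0.35. Cdh5, Eng and Pecam1 differed by 0.81, 0.84 and 0.54, and Slco1a4, a barrier transporter gene, by -1.82. The mean level of the endothelial list was 6.70 and 6.61 log2 with ISOX DUAL, 6.77 and 6.70 with PBS, 7.05 and 6.81 in uninjected OIR, 6.74 and 6.65 in untreated day 17 and 6.25 and 6.21 in untreated day 7 retina, with 7 to 14 of the 15 markers above the floor. The uninjected OIR arrays were the highest and the day 7 arrays the lowest. All 10 pericyte and smooth muscle markers were above 0 in uninjected OIR (median 0.46, none called, 6 at an unadjusted p under 0.05).

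With age, Flt1 lay above most endothelial markers in its difference and Kdr below all of them. In untreated day 17 against day 7, 14 of 15 endothelial markers were above 0 and 4 were called higher (5.26% of all genes), namely Slco1a4 (at least 2.31-fold), Tek and Esam (each at least 1.22-fold) and Pecam1 (1.54-fold). Their median was 0.32 log2, beside 1.52 for Flt1, -0.71 for Kdr and 0.24 for Flt4. The highest endothelial difference other than that of Slco1a4 was 0.63, and the lowest was -0.09. Pericyte markers had 3 called higher of 10 (Abcc9, Rgs5 and Pdgfrb, median 0.28), and retinal pigment epithelium markers 5 called higher of 10 (median 0.75). The pigment epithelium list averaged 7.08 and 6.70 log2 in untreated day 17 and 6.23 and 5.92 in untreated day 7 retina. Its medians against untreated day 17 were -0.64 with ISOX DUAL, -0.50 with PBS and -0.42 uninjected. All 10 differences were below 0 in each of these 3 OIR groups, but none was called. In uninjected OIR the list averaged 6.71 and 6.10 log2, overlapping the untreated day 17 arrays.

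Other cell lists moved with some comparisons. In uninjected OIR against untreated day 17, the astrocyte list had 2 of 5 called higher, Gfap (2.39) and Slc14a1 (1.37), where 0.456% of all genes were called higher. Its median was 0.18, with 3 of the 5 differences above 0. Of 9 Müller glia markers Sox9 was called higher (0.91) and Abca8a lower (-0.87). The Müller list's median was -0.32, with only 3 of the 9 differences above 0. The 10 microglia and macrophage markers had a median of 0.25 with none called (4 at an unadjusted p under 0.05, against 6.1% of all genes). Müller glia and astrocytes are known sources of VEGF-A in the retina. Of the 4 lymphatic endothelial markers tested none was called in OIR (2 at an unadjusted p under 0.05), and Lyve1 was at least 3.58-fold higher in untreated day 17 than in day 7 retina. Horizontal cell markers had none of 6 called in OIR (0 at an unadjusted p under 0.05), and with age Calb1 rose (2.40) and Onecut2 fell (-1.16). Rod markers had 7 of 8 called higher with age (5.26% of all genes) and none in OIR (0 at an unadjusted p under 0.05).

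Lens marker levels were highest on the ISOX DUAL arrays. The 10 lens markers averaged 6.74 and 8.33 log2 with ISOX DUAL, 6.32 and 6.58 with PBS, 5.85 and 6.01 in uninjected OIR, 5.94 and 6.24 in untreated day 17 and 5.93 and 6.28 in untreated day 7 retina. All 10 were above 0 in ISOX DUAL minus PBS (median 0.79, none called, 5 at an unadjusted limma p under 0.05, against 1.02% of all genes). Their part in the values of the 7 genes was not tested. Without ISOX DUAL array 2, the array of highest lens level, the Vegfa difference from PBS was 0.03 log2, and with all arrays it was -0.06. The ISOX DUAL array that remained, at 6.74, also lay above both PBS arrays in lens level, so this fit cannot show the part of lens RNA.

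**Figure D4:**
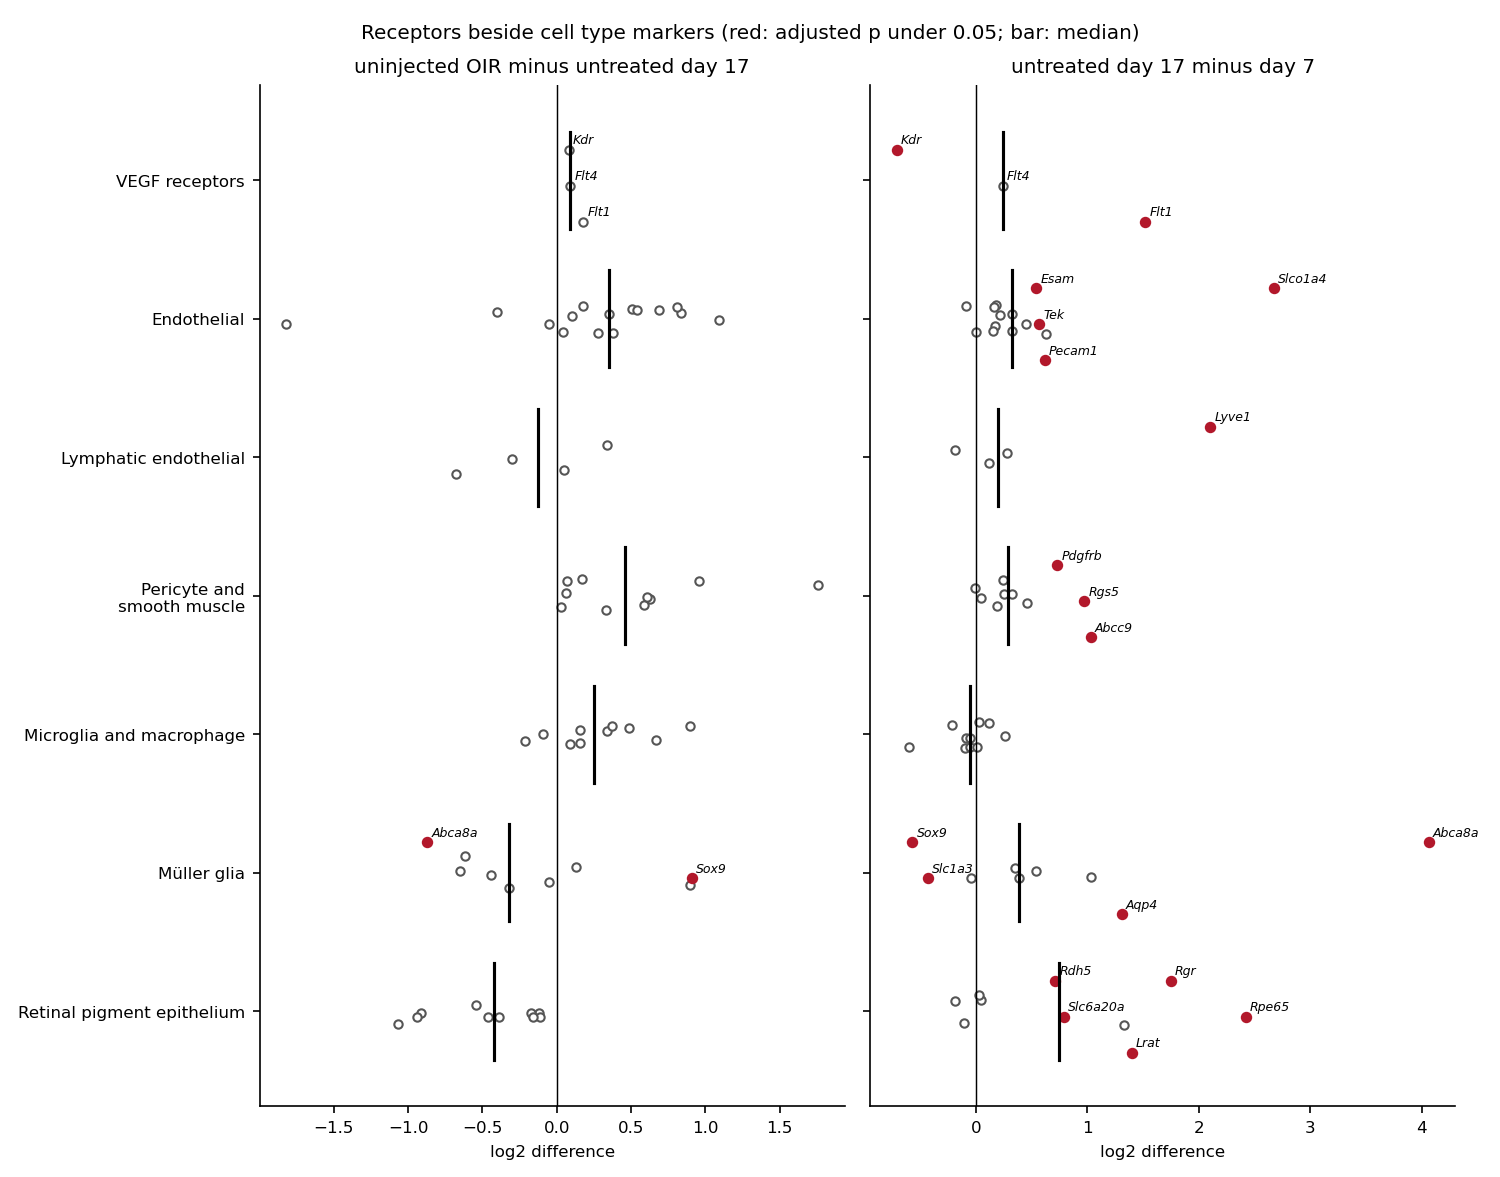
Log2 difference (x axis) of the 3 receptors and of each tested marker of 6 cell lists (rows, points spread vertically only for legibility) for uninjected OIR against untreated day 17 (left) and untreated day 17 against day 7 (right), with called genes in red and named, and medians as bars. With age Flt1, at 1.52, lies above and Kdr, at -0.71, below the endothelial median of 0.32.

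Genes whose levels followed each of the 7 most closely over the 10 arrays are given as a description, since the points share 5 groups of arrays and the search ran over all tested genes. For Vegfa they were Myof (Pearson r = 0.985), Adm (0.965) and Tgfbi (0.964), and for Pgf, with 8 of its 10 arrays below the floor, Litaf (0.973), Wwtr1 (0.959) and Inpp5f (0.948). For Flt1 they were Prkce (0.994), Osbpl6 (0.993) and Il1rap (0.993), and for Kdr Cyb5rl (0.976), Isoc1 (0.972) and Zfp266 (0.971). Vegfb was nearest to Fxyd7 (0.983), Vegfc to Tcl1b1 (0.95) and Flt4 to Sdk2 (0.952). Over the 8 day 17 arrays alone the nearest genes were mostly others, with Litaf (0.989) again among the 3 nearest to Pgf, Cyb5rl (0.982) among the 3 nearest to Kdr, and Top2a (0.99) the nearest to Vegfa.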

How the data were processed

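The authors' deposited table gives, for each array, a log2 value per transcript cluster (log2 judged from the range, 0.78 to 13.67). RNA came by Trizol and was labelled with a whole-transcript kit, per the labels' protocols. Which software, background correction and normalization made the values is not given in the sources used here. They were used as deposited. Of 72688 rows, 6732 controls were set aside, and 30604 of 65956 clusters had 1 gene symbol in the platform annotation, updated through RefSeq genes of GRCm38.p6. A gene took its single-symbol cluster of highest mean, and was tested if at least 2 arrays exceeded their own 30th percentile.

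All 10 arrays entered a single limma fit (version 3.58.1, R 4.3.3, lmFit, then eBayes with no trend), with Benjamini-Hochberg adjustment over 23255 genes at 0.05. The fit had 5 residual and 2.76 prior degrees of freedom, and the number of arrays limits its precision (median standard error 0.13 log2). Intervals are at 95% and unadjusted. A gene below the negative control median on both arrays of a group has only a bound there. All 7 genes were described in every comparison, with the members of smallest p from each list (up to 6 in uninjected OIR against untreated day 17, up to 4 between the untreated ages). The genes and lists were chosen with earlier results of these data known. The comparisons of OIR groups with day 7, the fit without day 7 arrays and the crossed pairing were added after the data were seen. The steps were tested on simulated data. Promoter windows are RefSeq's, GRCm38.p6.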

Additional observations from a re-analysis of the deposited data

How the results depend on the processing

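Each of 70 differences (7 genes in 10 comparisons) was recomputed under up to 21 other settings. Of 1442 values, 1366 kept their direction and their side of the threshold, 48 lost the threshold, 5 gained it and 23 changed sign. Over all 23255 genes, 115 were called in uninjected OIR against untreated day 17, 12 with array weights and 0 with the 4 arrays alone. Between the untreated ages these counts were 2454, 1111 and 345. Against day 7 the 4 arrays alone gave 489 of all genes for uninjected OIR, 796 for PBS and 915 for ISOX DUAL. The number of called genes among the 7 moved as follows. In uninjected OIR against untreated day 17 (2 called) it was 0 with array weights and 0 in a fit of the 4 arrays alone, and 0 to 2 with 1 array left out: 0 without any ISOX DUAL, uninjected OIR or untreated day 17 array. In untreated day 17 against day 7 (3 called) it was 1 with array weights, 1 with the 4 arrays alone and 1 to 3 with 1 array left out: 1, Flt1, without untreated day 17 array 1 or day 7 array 2. Against day 7 it was 2 of 4 with the 4 arrays alone and 2 to 4 with 1 left out for uninjected OIR (2 without array 1 of that group), 1 of 2 with the 4 arrays alone for PBS and for ISOX DUAL, 2 to 3 with 1 array left out for PBS, and 1 to 2 for ISOX DUAL (1 without its array 1). The replicate number as a block left 2 called in uninjected OIR against untreated day 17, 3 with age and 0 between OIR groups, and added Kdr for PBS against day 7 (adjusted p = 0.0164). The first-minus-second differences of groups correlated across genes at 0.583 to 0.809 among uninjected groups, 0.399 between the injected groups and -0.406 to -0.0567 between these kinds. The labels give the numbers no origin. Crossing the numbers in the injected groups, chosen after seeing the data, gave 1 called gene for PBS against untreated day 17, 2 for uninjected OIR and 0 for ISOX DUAL.

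Signs changed only for differences that were not called. With 1 array left out, uninjected OIR minus untreated day 17 ran from -0.37 to 0.08 for Vegfb and -0.03 to 0.20 for Kdr. Flt1 ran from -0.09 to 0.07 for PBS and -0.08 to 0.11 for ISOX DUAL minus untreated day 17, and quantile normalization gave 0.0021 for PBS. ISOX DUAL minus PBS ran from -0.16 to 0.04 for Vegfa, -0.12 to 0.14 for Vegfb, -0.06 to 0.12 for Flt1 and -0.02 to 0.04 for Flt4, and ISOX DUAL minus uninjected OIR from -0.14 to 0.02 for Vegfc. Untreated day 17 minus day 7 ran from -0.14 to 0.09 for Vegfa, -0.0072 to 0.45 for Vegfb and -0.00074 to 0.30 for Vegfc. Against day 7, Vegfb ran from -0.15 to 0.31 for uninjected OIR, -0.45 to 0.0059 for PBS and -0.45 to 0.01 for ISOX DUAL, Vegfc from -0.22 to 0.08 for PBS, and Pgf from -0.06 to 0.15 for ISOX DUAL. The causes of the lost calls were not tested. Vegfb, Vegfc, Pgf, Flt1 and Flt4 lay under the 95th percentile of the negative controls on every array, and Pgf and Vegfc lay in part below their median, where only bounds hold.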
